A study of Mus musculus with 44 samples.

Results

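The replication-dependent histone genes encode the H1, H2A, H2B, H3 and H4 proteins that package newly made DNA. CTCF at their clusters was compared between WT and *Setdb1* KO mouse ESCs. Genes whose GENCODE vM21 symbols begin with Hist1h, Hist2h, Hist3h or Hist4h were taken as members, 70 of 55450 annotated genes, of which 67 are protein-coding and 3 are pseudogenes (Hist3h2bb-ps, Hist1h2aj and Hist1h2al). A CTCF peak was a member when its summit lay in such a gene or within 20 kb of it. This gave 28 of the 44241 WT peaks and 36 of the 59698 *Setdb1* KO peaks.

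The cells were TT2 mouse ESCs of a C57BL/6/CBA F1 background, clone 33#6, grown in serum and LIF. The KO sample carried the conditional *Setdb1* allele, deleted by 800 nM 4-OHT for 4 days, with harvest on day 6. The labels do not say whether the WT sample received 4-OHT, and the deletion and the drug therefore cannot be told apart. Chromatin was crosslinked, sonicated and precipitated with a CTCF antibody. With 1 analysed peak list per condition, differences between WT and KO have neither a replicate spread nor a test. Intervals of ratios cover counting error of fragments only, with reads that are not independent molecules. Intervals of shares cover only the counting of peaks. The second CTCF libraries, the catalytic mutant lines and the other assays of the 44 samples were not analysed here.

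In dividing cells the replication-dependent histone genes are transcribed in S phase, within nuclear bodies that form at the clusters. Their mRNAs carry no poly(A) tail and end instead in a short stem-loop that the stem-loop binding protein recognises. CTCF is a zinc finger protein that binds insulators and stops loop-extruding cohesin in a manner that depends on the direction of its motif. SETDB1 is the methyltransferase that places H3K9me3 on much of the repressed chromatin of ESCs.

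The gene list was first checked for this stem-loop, searched as a stem of 6 base pairs around a loop of TTT and any base within 100 bases after an annotated stop codon. It was found in 63 of the 67 protein-coding members, at a median of 31 bases after the stop, and in 53 of 21695 other protein-coding genes (0.244%). The 4 coding members without it were Hist1h2an, Hist1h3g, Hist1h4a and Hist2h2be. The stem-loop sequences are shown because they separate the H4 genes from the other classes. In the reference sequence (GRCm38.p6), with the loop in capitals, they were:
Stem-loop of 41 H1, H2A, H2B and H3 genes, such as Hist2h3c2: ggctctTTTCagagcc
Stem-loop of 9 H1, H2A, H2B and H3 genes, such as Hist2h2ab: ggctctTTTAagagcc
Stem-loop of Hist2h2ac: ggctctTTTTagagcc
Stem-loop of 8 H4 genes, such as Hist4h4: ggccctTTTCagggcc
Stem-loop of 2 H4 genes, such as Hist2h4: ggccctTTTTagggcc
Stem-loop of 2 H4 genes, such as Hist1h4j: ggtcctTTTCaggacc

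Member genes up to 100 kb apart were joined, which gave 8 loci. Chromosome 13 holds 5 of them. The Hist1h2bl to Hist1h2br locus has 19 genes (chr13:21715763-21837530), the Hist1h2ah to Hist1h2bj locus 5 genes (chr13:22035164-22043676) and the Hist1h4h to Hist1h1a locus 29 genes (chr13:23531050-23764406). The last of these has 5 of the 6 H1 genes. The divergent pair Hist1h2ba and Hist1h2aa (chr13:23933773-23934851) and the lone pseudogene Hist1h2al (chr13:51202727-51203065) complete that chromosome. The Hist2 locus has 10 genes (chr3:96219865-96270132), the Hist3 locus 3 (chr11:58948920-58956830), and Hist4h4 stands alone (chr6:136801553-136804415).

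The motif sequences of the sites described below are shown next, since they differ in a way that runs through the results. Some lie in mostly repeat-masked sequence and some do not, and a stretch in Fcgr1 repeats the motif. Capitals mark the 14-base core of the best match to a CTCF matrix within 50 bp of the summit in *Setdb1* KO, read on the strand of the motif, and the coordinates are those of the core.
Inside Hist1h4h to Hist1h1a, in the annotated span of Hist1h2be (chr13:23598173-23598186, minus strand): aaaCCACTAGGTGGCGCtgc
70 bp beyond the end of Hist1h4c (chr13:23697561-23697574, minus strand): ctgCCACAAGAGGGCGGcgt
749 bp before the start of Hist1h4j (chr13:21734279-21734292, minus strand): tggCCACTAGAGGGCACtct
844 bp outside Hist1h2bl (chr13:21714912-21714925, plus strand): tggCCACAAGATGGCAGaaa
In Trim17, beyond Hist3h2a (chr11:58967536-58967549, plus strand): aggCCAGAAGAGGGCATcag
KO-only, 12.7 kb before Hist1h2al (chr13:51215727-51215740, minus strand): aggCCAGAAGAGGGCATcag
KO-only, beyond Hist1h2aa (chr13:23951124-23951137, minus strand): ctgTCAGAAGAGGGCATcag
Shared, 11 kb before Hist1h2al (chr13:51214058-51214071, minus strand): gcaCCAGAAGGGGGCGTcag
Repeated stretch in an intron of Fcgr1, beyond Hist2h2bb (chr3:96287427-96287641, minus strand, whole stretch with each core in capitals): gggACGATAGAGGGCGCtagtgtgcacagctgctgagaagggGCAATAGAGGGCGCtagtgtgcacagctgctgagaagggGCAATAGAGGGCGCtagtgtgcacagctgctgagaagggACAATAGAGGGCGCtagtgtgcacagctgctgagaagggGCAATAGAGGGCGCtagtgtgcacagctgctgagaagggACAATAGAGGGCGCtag

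The value used for each peak is the number of fragments over its summit, solved from the deposited fold enrichment and p, at a depth of 27.4 M tags in WT and 27.6 M in *Setdb1* KO. Of the 36 KO member peaks, 27 shared 1 bp or more with a peak in WT and 9 overlapped none (KO-only). The KO-only share was 25% (Wilson 95% interval 13.8 to 41.1), beside 28.8% of the whole KO list (17209 of 59698). None of the 28 WT member peaks was WT-only, which allows a share of up to 10.7% (3 counts of the total), beside 3.22% of the whole WT list. A gain of listed peaks near the genome-wide share was thus seen at the histone genes. The absence of WT-only members says little beside a whole-list share this low. With a reciprocal overlap of 50%, or with lists of equal length, 2 of 28 were WT-only. With both lists restricted to a -log10 q of at least 5, 15.6% of the members and 26.6% of the whole list were KO-only. With lists of equal length the values were 10.7% and 11.7%.

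**Figure D1:**
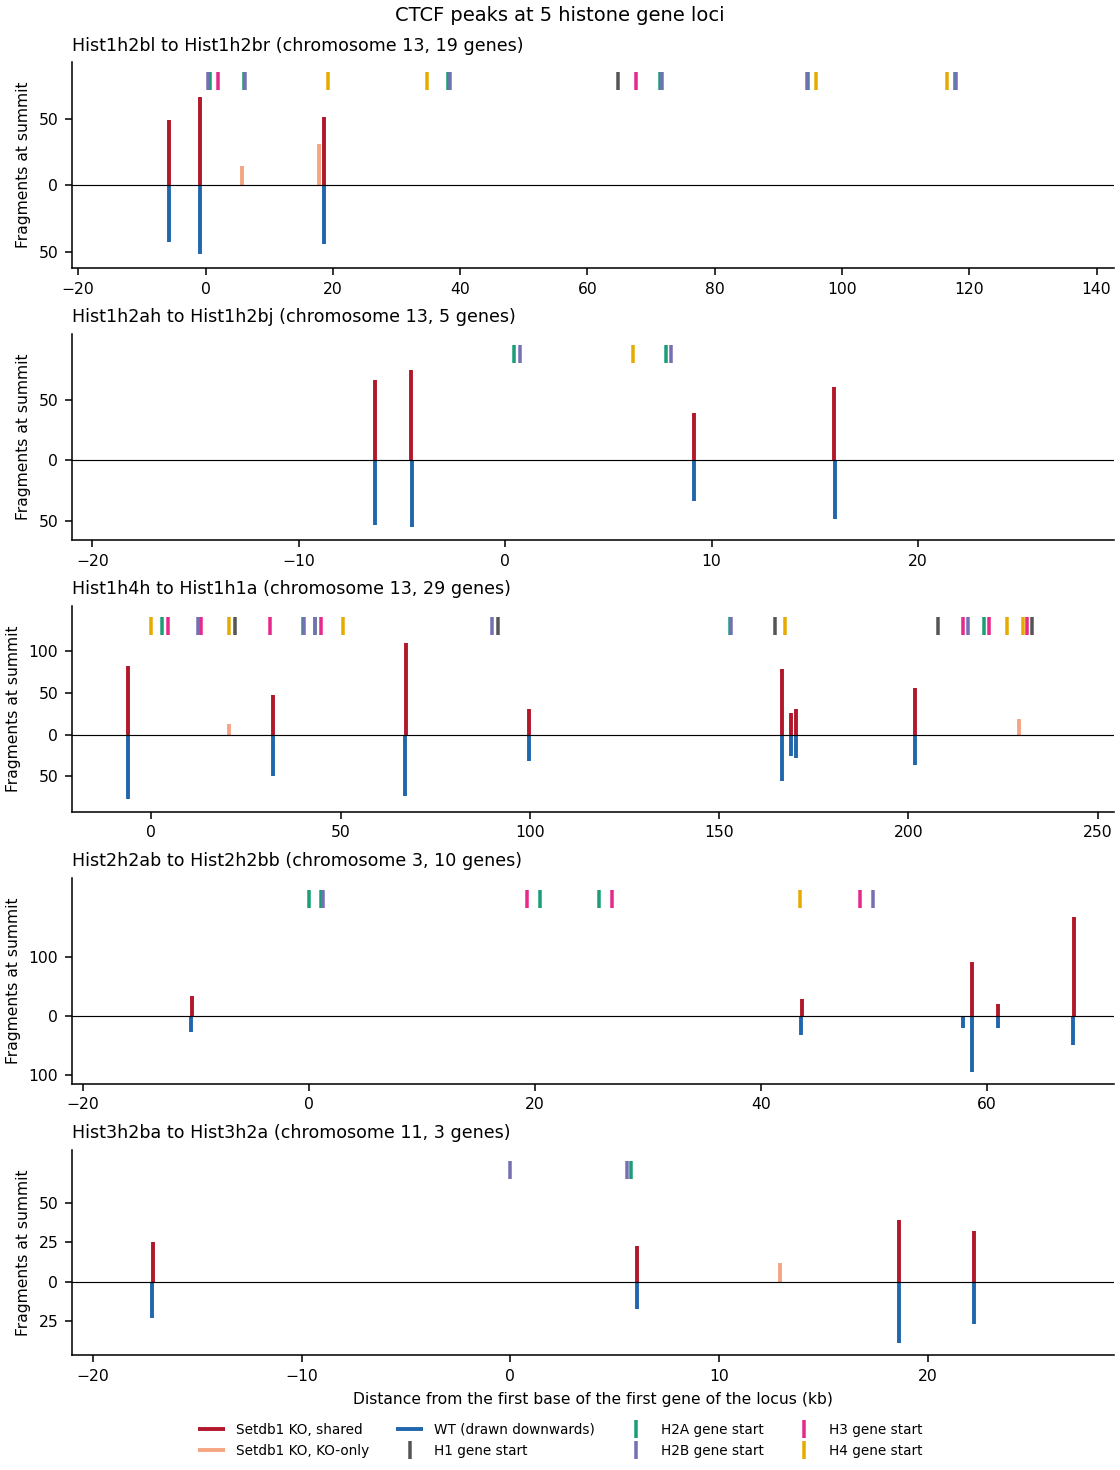
Fragments over each CTCF summit (vertical axis; *Setdb1* KO upwards, WT downwards) against the distance from the first base of the first gene in kb, for 5 histone gene loci, with gene starts as ticks coloured by histone class. Peaks flank the 5-gene Hist1h2ah to Hist1h2bj locus on either side, and no peak lies beyond 18.6 kb in the 122-kb Hist1h2bl to Hist1h2br locus.

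The ends of the loci were occupied in most cases, and differently from locus to locus. Of the 36 KO peaks, 22 (61.1%) lay outside the outermost genes, 6 inside and within 20 kb of an end, and 8 deeper inside, so that 14 (38.9%, 24.8 to 55.1) were interior. The median pileup was 39 fragments outside, 26.5 in the inner edge zones and 39 in the cores. KO-only peaks were 5 of 22 outside, 3 of 6 in the inner edge zones and 1 of 8 in the cores. With numbers this small the intervals of these shares overlap (10.1 to 43.4%, 18.8 to 81.2% and 2.24 to 47.1%). Of the 22 outside peaks, 5 lay around Hist1h2al and 2 around the pair Hist1h2ba and Hist1h2aa, with 3 and 1 of the KO-only peaks. These loci span 0.339 and 1.08 kb and have almost no interior, so the shares by place do not describe the larger clusters alone. The zones were not set against their lengths.

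The Hist1h2ah to Hist1h2bj locus had peaks beyond both ends and none among its genes. Its 4 sites were all shared. On the low side the summits had 67 fragments in KO and 54 in WT, and 75 and 55, 6.3 and 4.5 kb from Hist1h2ah, an H2A gene. On the high side, 655 bp beyond the H2B gene Hist1h2bj, the values were 39 and 34, and 7.4 kb beyond it 61 and 49. Over the 4 sites the KO to WT ratio of the summed fragments was 1.26 (exact Clopper-Pearson interval 1.04 to 1.53). The motifs called at 3 of these sites all lie on the minus strand, so that the 1 on the low side points away from the genes and the 2 on the high side toward them.

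At the Hist1h2bl to Hist1h2br locus the peaks crowded at the low end. The sites 5.7 kb and 844 bp outside Hist1h2bl had 49 and 66 fragments in KO and 43 and 52 in WT, and both carry motifs on the plus strand, the direction of the genes. Inside, the last shared site lies 749 bp before the start of Hist1h4j, an H4 gene, with 51 fragments in KO and 44 in WT, and its motif points back to the low end. A KO-only peak with 31 fragments lay 1498 bp before the same start (chr13:21733431-21733751), 324 bp from the nearest WT peak. A second KO-only peak of 14 fragments lay 19 bp past the 3′ end of the pseudogene Hist1h2aj and 606 bp from the start of Hist1h2bm, outside the stretch between the starts of this divergent pair. Beyond the site at Hist1h4j no summit was listed for 189 kb in KO, a stretch with 14 histone genes, and for 194 kb in WT.

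The Hist1h4h to Hist1h1a locus, the one with most genes, was occupied in its interior. Only 1 of its 10 KO peaks lay outside, 6.3 kb before Hist1h4h, with 82 fragments in KO and 77 in WT. The strongest interior site, with 110 fragments in KO and 74 in WT, lies 16.6 kb past the start of Hist1h4d, in an intron of the long annotated span of Hist1h2be, an H2B gene. Next to Hist1h4c, an H4 gene, 3 shared sites stood in a row, 70 bp beyond the gene's end (79 and 56 fragments in KO and WT), 1.5 kb before its start (26 and 26) and 3.0 kb before its start (30 and 28). The last 2 of these lie between Hist1h4c and Hfe, the hemochromatosis gene, whose nearest end is 627 bp from the last of them. The site 945 bp before Hist1h3e, an H3 gene, had 47 fragments in KO and 50 in WT, that 8.3 kb from Hist1h1e, an H1 gene, 31 and 32, and that 6.1 kb from Hist1h1c 56 and 37. No summit lay within 20 kb outside the high end at Hist1h1a in either list. There the one peak was KO-only, 398 bp beyond Hist1h4a, with 18 fragments over a background of 4.83, the lowest fold enrichment among the KO-only members (3.26). It was the nearest site to Hist1h4b, Hist1h4a, Hist1h3a and Hist1h1a, the 4 genes with a KO summit and no WT summit within 20 kb.

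The Hist2 locus had 1 interior site, 158 bp before the start of Hist2h4, with 30 fragments in KO and 31 in WT. The low-end site, in an intron of Bola1, had 35 and 27. Beyond the high end, 3 peaks lay before and in Fcgr1, which encodes a high-affinity receptor for IgG. The first, 8.4 kb beyond Hist2h2bb, had 93 fragments in KO and overlapped 2 WT peaks of 19 and 95 fragments, so that no ratio was taken. The second had 21 and 19. The third, in an intron of Fcgr1, 17.4 kb beyond Hist2h2bb, is taken up below.

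At the Hist3 locus, 4 of the 5 KO sites were shared. That in Hist3h2a, 306 bp past its start, which also lies in annotated exons of Trim17, had 23 fragments in KO and 17 in WT. The sites beyond it in Trim17, a gene of the tripartite motif family, had 39 and 39, and 32 and 27, and the site 17.1 kb before Hist3h2ba had 25 and 23. The KO-only peak in Trim17 had 12 fragments, the lowest of the 36. The pair Hist1h2ba and Hist1h2aa had a shared site 8.2 kb beyond Hist1h2aa, with 31 and 23 fragments, and a KO-only site of 19 fragments 16.3 kb beyond it. No member peak lay near Hist4h4, whose nearest KO summit was 43.6 kb away, in a stretch of 105 kb without a summit in either list.

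**Figure D2:**
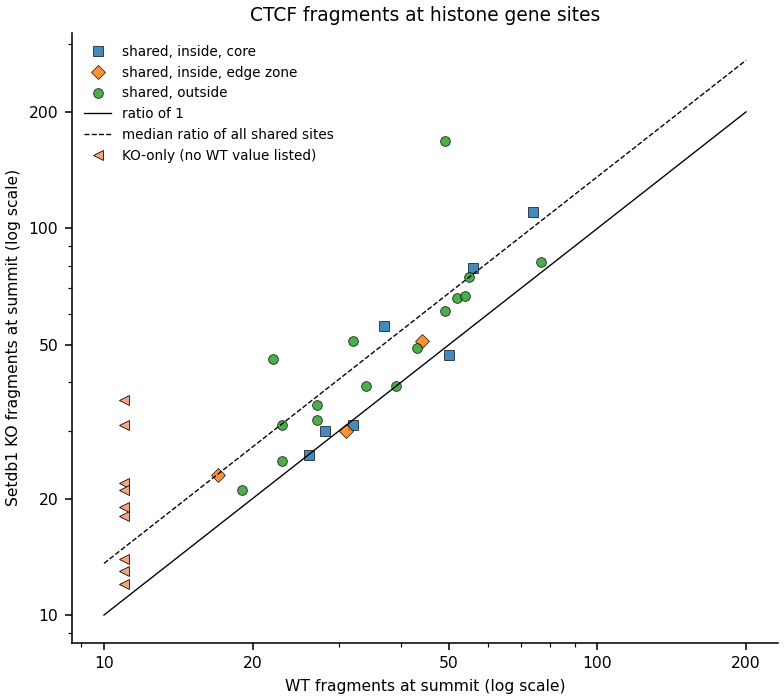
Fragments over the summit in *Setdb1* KO (vertical, log scale) and WT (horizontal, log scale) at 26 shared histone gene sites, by their place in the locus, with lines at a ratio of 1 and at the median of all shared sites, 1.36; KO-only peaks are set at the left margin, since no WT value is listed for them. The site at 168 KO and 49 WT fragments stands apart, and most of the others lie between the lines.

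Ratios could be taken at the 26 sites where 1 KO peak overlapped 1 WT peak. Their median KO to WT ratio was 1.21 (quartiles 1.08 and 1.36), beside 1.36 (1.17 and 1.61) over all 41869 such sites of the genome, from libraries of nearly equal depth. Of the 26, 19 (73.1%) lay below the genome median. The ratio was at least 1.5 at 4 of 26 (15.4%), beside 35.0% of all shared sites, and 1 or less at 5 of 26 (19.2%), beside 9.2%. The interval of the ratio lay above 1 at 4 sites (15.4%), beside 31.5%. Counting error was wide for single sites: no member's interval lay wholly below 1.36, and 1 lay wholly above it. Other shared sites within 1 Mb of the loci had a median of 1.38 (n = 290), and those with WT pileups between the members' quartiles (27 to 49.8 fragments) had a median of 1.41 (n = 14346). These medians are descriptions of the 2 libraries, with no test between them.

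The fragments of the 26 sites came to 1370 in KO and to 1020 in WT. Their ratio was 1.34 (1.24 to 1.46), beside 1.38 for the sums over all shared sites. Without the site in Fcgr1 the sums were 1202 and 971 and the ratio was 1.24 (1.14 to 1.35). The 5 lowest ratios were 0.94 at the site before Hist1h3e (0.62 to 1.43), 0.97 before Hist2h4 (0.57 to 1.65), 0.97 near Hist1h1e (0.57 to 1.64) and 1.00 at both the Trim17 site of 39 fragments and the Hist1h4c site of 26. The first of these sits by an H3 start, the second by an H4 start. The 5 highest were 3.43 in Fcgr1 (2.48 to 4.82), 2.09 and 1.59 near Hist1h2al (1.23 to 3.65 and 1.00 to 2.56), 1.51 near Hist1h1c (0.98 to 2.36) and 1.49 in the span of Hist1h2be (1.1 to 2.02). By place, the median ratio was 1.07 for the 7 core sites, 1.16 for the 3 inner edge sites and 1.24 for the 16 outside sites.

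**Figure D3:**
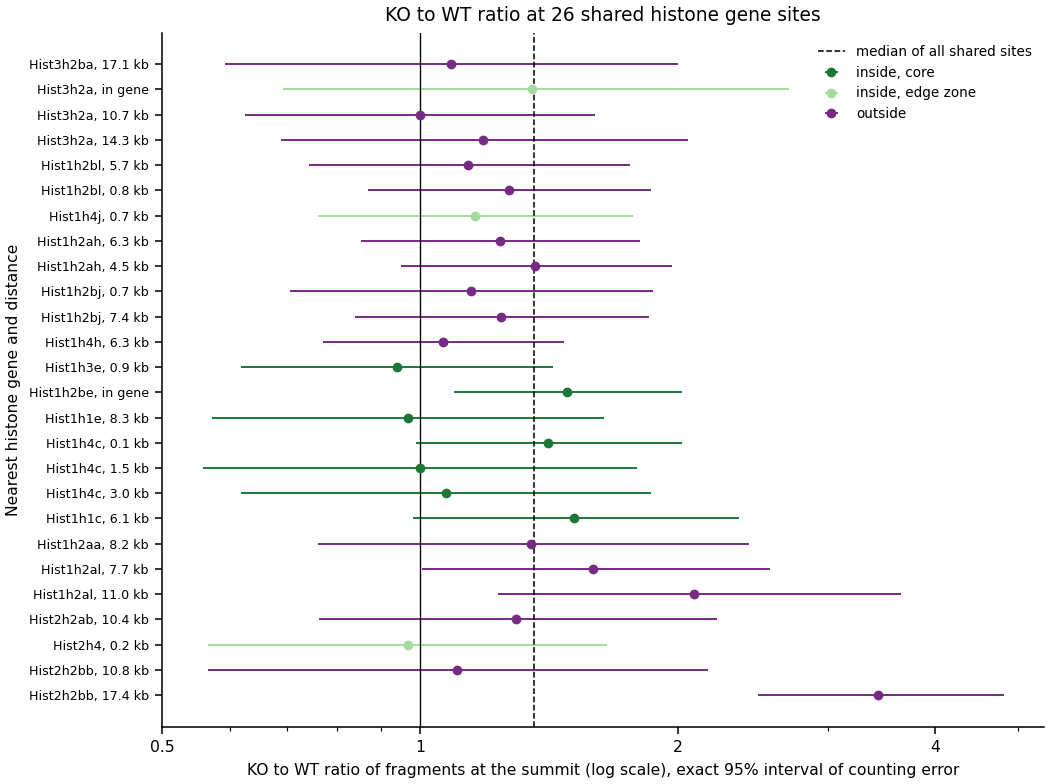
KO to WT ratio of the fragments at the summit (horizontal, log scale) with exact 95% Clopper-Pearson intervals of counting error at 26 shared sites, in order along the chromosomes and coloured by place, with lines at 1 and at the genome median of 1.36. The intervals of all sites but the last, 3.43 in Fcgr1, reach or cross the line at 1.36.

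The Fcgr1 site (chr3:96287119-96287880) had 168 fragments in KO and 49 in WT. Its KO pileup was at the 99.8th percentile of the KO list and its ratio at the 99.3rd of all shared sites. This peak also had the repeated stretch printed above, with 6 matches to the CTCF matrix above the threshold, all on the minus strand and spaced by 39 bp at the median, of 3 different core sequences. Only 8 of the 59698 KO peaks (0.0134%) held 6 or more matches. Of the other 7, 6 could be paired and had a median ratio of 2.53 (range 1.34 to 3.96). Peaks with 2 or more matches had a median ratio of 1.38, those with 1 match 1.39 and those with none 1.29. This stretch was searched after the site's ratio was known. In the peak, 90.7% of 75-base words occur once in the genome, and the part of read placement in the ratio was not tested.

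The 5 KO peaks around the pseudogene Hist1h2al, far from the other Hist1 loci, had a makeup of their own. KO-only peaks of 22 and 21 fragments lay 12 and 10.8 kb beyond it. Before its start came shared sites of 51 fragments in KO and 32 in WT and of 46 and 22, and a KO-only site of 36 fragments, the highest fold enrichment among the KO-only members (9.49). The summed ratio of the 2 shared sites was 1.8 (1.27 to 2.55). This lone processed pseudogene, which lies in no histone cluster, therefore gave 3 of the 9 KO-only members, and with protein-coding members alone the KO-only share was 19.4% (6 of 31). With chromosome 13 left out it was 10.0% (1 of 10).

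The KO-only peaks were weaker than the shared ones, as in the whole list. Their pileups ran from 12 to 36 fragments with a median of 19, against 21 to 168 with a median of 47 for shared KO peaks. Over the whole KO list the medians were 18 and 55. The lowest pileup in the WT list was 9, so that a KO-only peak may have had some WT fragments without being listed. Within 50 bp of the summit, a CTCF motif was called at 2 of 9 KO-only members (22.2%, Wilson 6.3 to 54.7), beside 36.5% of all KO-only peaks. Among shared members it was called at 18 of 27 (66.7%, 47.8 to 81.4), beside 65.5%. The matrix was built from shared peaks alone, so a lower share at KO-only peaks may be partly built in, which was not tested. Searched over the whole peak at the same threshold, the KO-only peaks of 22 and 21 fragments near Hist1h2al also held 1 match each. So did the shared site of 26 fragments near Hist1h4c. No whole-list share is given for that search. Of the 9 KO-only summits, 3 were mostly in repeat-masked sequence, beside 41.4% over the whole list.

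Repeat-masked copies of the motif were found at both kinds of site. The 20 bases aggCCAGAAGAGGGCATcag were the best match both at the KO-only peak near Hist1h2al and at the shared Trim17 site, and 553 of the 34094 KO peaks with a motif had these same 20 bases, 92.2% of them in mostly repeat-masked sequence and 27.7% of them KO-only. The 14-base core alone was found at 3038 KO peaks, of which 41.3% were KO-only. Both KO-only shares are among KO peaks with a motif, so the 28.8% of the whole KO list is not their base. A motif was called at 36.5% of all KO-only peaks and at 65.5% of all shared ones, so their base is lower. Both KO-only members with a motif within 50 bp of the summit, near Hist1h2al and beyond Hist1h2aa, were in mostly repeat-masked sequence.

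Over all 36 KO peaks, 20 had a motif (55.6%, 39.6 to 70.5), beside 57.1% of the KO list, and 13 of the 20 lay on the minus strand. Of the 14 motifs called outside the loci, 9 pointed toward the genes and 5 away. On the low side 2 pointed toward and 2 away, and on the high side 7 and 3. Only the Hist1h2ah to Hist1h2bj locus had motifs called outside both of its ends, with 2 pointing toward the genes and 1 away. A CpG stood at position 12 of the core, counted from its first base, in 10 of the 20 motifs, beside 36.3% of all KO peaks with a motif, and at position 2 in 1, beside 4.12%.

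Peaks near gene starts were counted by class, with numbers too small to rank the classes and no test between them. A KO summit lay within 1 kb of the start of 10 of the 70 genes (14.3%), and a WT summit of 6, beside 16% and 12.4% of the 21951 protein-coding genes. The sets are unlike, since the 70 include 3 pseudogenes. Of these, Hist1h2aj and Hist3h2bb-ps are among the 10, and Hist3h2bb-ps is among the 6, so the protein-coding members alone have lower shares. By class the 10 genes with a KO summit were 5 of 13 H4 genes, 2 of 20 H2A, 2 of 19 H2B, 1 of 12 H3 and none of the 6 H1 genes. They rest on 8 peaks. The same peak counts for Hist3h2a and Hist3h2bb-ps, and another for Hist1h2aj and Hist1h2bm, so the H2A and H2B genes share their peaks. The H4 genes were Hist1h4a, Hist1h4c, Hist1h4f, Hist1h4j and Hist2h4, and the others Hist3h2a, Hist1h2aj, Hist3h2bb-ps, Hist1h2bm and Hist1h3e. At Hist1h4a and Hist1h4f the peak was KO-only, as was the peak of 14 fragments that Hist1h2aj and Hist1h2bm share. The peak at Hist1h4f, of 13 fragments, was the only summit within 10 bp of a histone gene's start (chr13:23551600-23551792), and no CTCF motif was called there. Between the starts of 15 divergent gene pairs no more than 1 kb apart, 14 of them an H2A and an H2B gene with starts a median of 251 bp apart, no KO summit was found. These stretches are so short, beside 4.95 KO summits per 100 kb of the histone windows, that the absence says little.

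In all, 57 of the 70 genes had a KO summit within 20 kb and 53 a WT summit, and 13 genes had no KO summit. Of these, 10 lie in the Hist1h2bl to Hist1h2br locus from Hist1h1b on, 2 in the Hist2 locus, and the last is Hist4h4. Whether reads could be placed there differs along the loci, since the authors kept only reads with 1 best alignment. Of the 75-base words of the members' gene bodies, 79.2% occur once in the genome, and of those of their coding sequence 50.9%, against 89.1% at uniform positions of the genome. The coding share was 92.0% for H1, 56.5% for H4, 48.6% for H2B, 40.8% for H2A and 31.8% for H3. No word of the coding sequence was unique in 7 genes, among them Hist1h2bq, Hist1h2ao, Hist1h4m, Hist1h2ap and Hist1h2br at the high end of the first locus, and 6 of the 7 had no KO summit within 20 kb.

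In the Hist1h2bl to Hist1h2br locus, 93.6% of words were unique up to the last summit before Hist1h4j and 61.1% from there on, and from Hist1h2bq to Hist1h2br 35.5%, with 36.8% found in 2 copies. The stretch of the Hist2 locus without a summit had 92.6%, and its part from Hist2h3c2 to Hist2h3c1, with 4 genes, 65.8%. Within 100 bp of the member summits 97.7% were unique. The absence of listed peaks in the copied stretches and the absence of placeable reads cannot be told apart there, whereas Hist4h4 (97.9% unique in its window) and Hist1h1b, whose coding sequence is wholly unique, also had none. The part of read placement in the empty stretch was not tested.

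**Figure D4:**
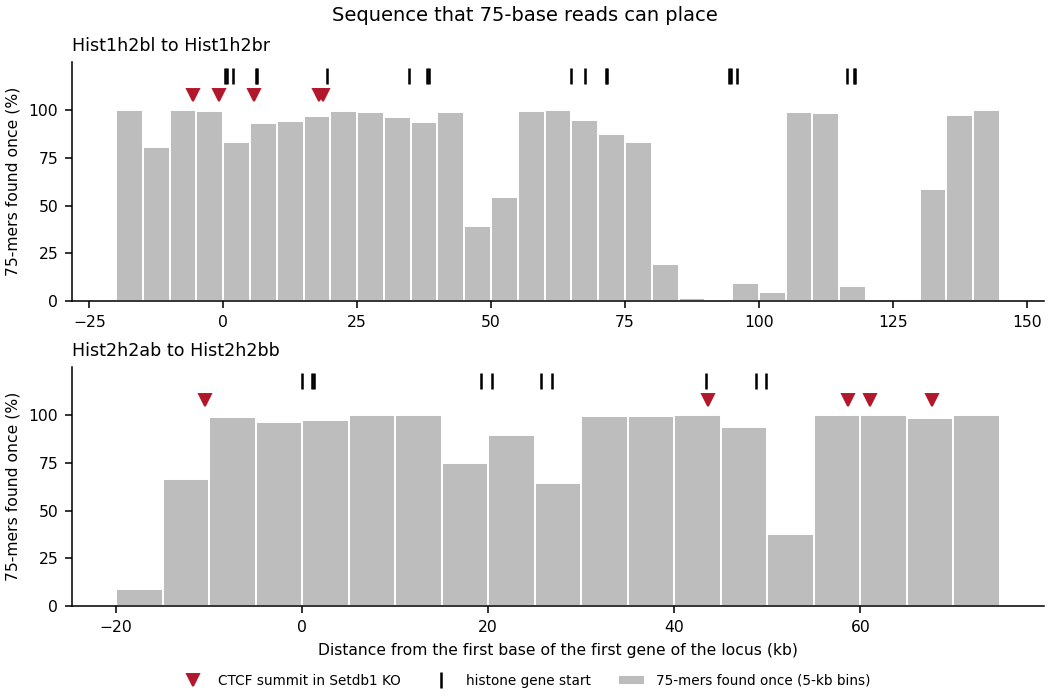
Percent of 75-base words that occur once in the genome, in 5-kb bins (bars), against the distance from the first gene in kb, with CTCF summits in *Setdb1* KO (triangles) and histone gene starts (ticks), for the Hist1h2bl to Hist1h2br and the Hist2 loci. In the upper locus no summit lies beyond 18.6 kb, and several bins beyond 80 kb hold few or no unique words.

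The histone windows held more CTCF summits than the genome at large and fewer than the clustered protocadherin genes. There were 4.95 KO and 3.85 WT summits per 100 kb in the 727 kb of histone windows, beside 2.19 and 1.62 over the genome. The excess was not particular to them. The gene lists described below had 5.11 and 3.72 (histone transcription and mRNA processing) and 5.565 and 5.10 (replication-independent histone genes). The values were 5.67 and 4.05 around Hox genes, which pattern the body axis, 11.8 and 10.1 around the clustered protocadherins, cell adhesion genes of neurons, and 1.21 and 0.76 around olfactory receptor genes. KO-only shares were 28.6% for Hox (16.3 to 45.1), 20.8% for protocadherins (20 of 96) and 38.2% for olfactory receptors (33.4 to 43.3). The histone interval of 13.8 to 41.1 covers each of these shares. The median ratios were 1.28, 1.47 and 1.39, beside 1.21 for the histone sites.

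The 12 genes listed as replication-independent histone genes, which encode variants such as H2A.Z and H3.3, had 36 KO and 33 WT summits within 20 kb. Of these, 4 KO peaks (11.1%, 4.41 to 25.3) were KO-only, beside 28.8% of the whole KO list. A single WT peak was WT-only, beside 3.22% of the whole WT list. The median ratio of their 32 paired sites was 1.42. Among them H2afx, whose product marks DNA breaks, also carries the stem-loop searched for above. Both of its KO peaks were KO-only, without a WT summit within 20 kb, and of the 3 KO peaks near H2afz, the H2A.Z gene, 1 was KO-only. The remaining KO-only peak was 1 of 6 near H3f3b, and the other genes of the list had none. No summit lay near H2afj in either list.

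The 17 genes of histone transcription and histone mRNA processing had 59 KO and 43 WT summits within 20 kb. Of these, 17 (28.8%, 18.8 to 41.4, the share of the whole KO list being 28.8%) were KO-only. WT-only were 2, beside 3.22% of the whole WT list, and the median ratio was 1.34 at 40 paired sites. Npat, the cyclin E-CDK2 substrate that activates histone genes, had 1 KO peak, which was KO-only with 14 fragments and within 1 kb of its start. All 3 KO peaks near Cpsf2 and both near Casp8ap2, which encode subunits of the cleavage machinery and a histone locus body protein, were KO-only, with up to 24 and 17 fragments. None of the KO peaks was KO-only near Pou2f1 (5 peaks) and Ncbp1 (5, with 1 WT-only peak), or near Lsm11 (4) and Cpsf3 (3), which encode a U7 snRNP protein and the endonuclease that cleaves histone pre-mRNA. Both kinds were found near Sympk (3 of 10 KO-only), Srrt (1 of 9), Lsm10 (2 of 5), Ccne2 (2 of 4), Ccne1 (2 of 3) and Zfp473 (1 of 2). With so few peaks per gene, these differences between genes say little. Slbp, the stem-loop binding protein gene, had 2 shared sites with a median ratio of 1.36, and the single site near Hinfp, an activator of H4 genes, had a ratio of 2.0. Cdk2 and Cstf2 had no summit within 20 kb.

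**Figure D5:**
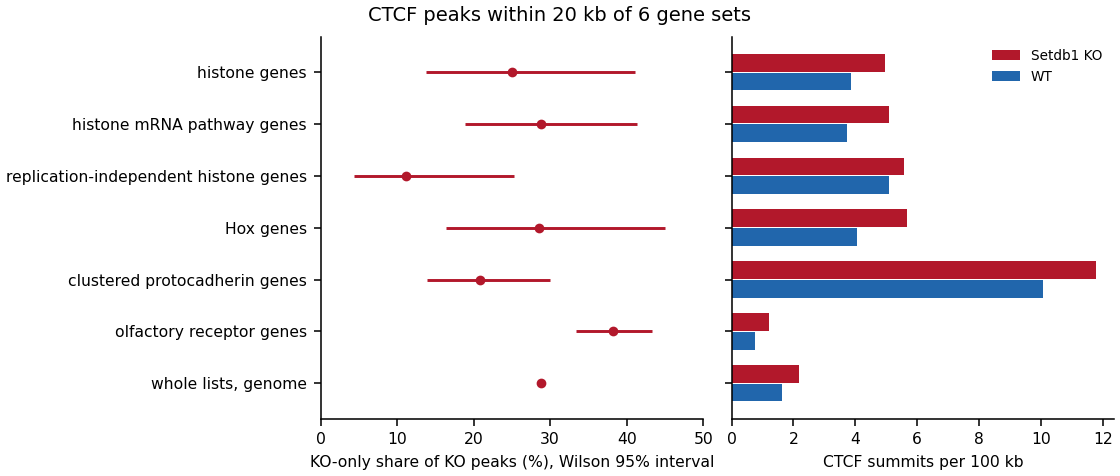
Left, KO-only share of *Setdb1* KO peaks in percent with Wilson 95% intervals; right, CTCF summits per 100 kb in *Setdb1* KO and WT (bars from 0), for peaks within 20 kb of 6 gene sets and for the whole lists. The histone genes, at 25% KO-only and 4.95 KO summits per 100 kb, lie near the histone mRNA pathway genes and the Hox genes in both panels.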

How the data were processed

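CTCF ChIP-seq peak lists of WT and *Setdb1* KO ESCs were analysed, 1 library each. The authors used Bowtie 1.2 for alignment to mm10 (GRCm38), with up to 3 mismatches and 1 best alignment, Picard for duplicates and MACS2 2.1.0 for peaks (q of 0.05). The deposited fold enrichment is a ratio of pileup to local background, each plus a pseudocount of 1, p and q are deposited as -log10 values, the deposited score is 10 times -log10 q, and the other deposited column is the summit offset. Pileup and background were solved from fold enrichment and p (tolerance 0.001 on -log10 p; 100% of WT and 99.99% of KO peaks). The lowest background gave 27.4 M WT and 27.6 M KO tags, which set the counting error. Printed intervals are Wilson or exact Clopper-Pearson at 95%. To judge alternative settings, the median ratio had a binomial order-statistic interval over sites, and summits per 100 kb a Poisson interval.

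The CTCF matrix came from the 1000 shared KO peaks of highest -log10 q, and a match was called within 50 bp of a summit above the 99th percentile of windows 1 kb away. Words of 75 bases, the read length, were counted in GRCm38.p6 on both strands by exact match. In simulated data, 100% of 3918 pileups, 83.3% of 1000 motifs drawn from the matrix and 0.9% of 1000 windows without one were called.

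Named sites followed a rule: peaks nearest each locus end, the KO-only and WT-only peaks of highest fold enrichment, the sites of highest pileup, the shared sites of highest and lowest ratio, and genes with a summit in them or within 1 kb of the start. The repeated stretch in Fcgr1 and the shared motif copies were singled out after their values were seen. Alternatives were overlap, list length, enrichment, window, motif and word-length settings. Members and lists were chosen with earlier results of these data known. Scripts ran in Python 3.11.15 with scipy 1.17.1 for intervals, pandas 2.3.3, numpy 2.4.6 and, for plots, matplotlib 3.10.9.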

Additional observations from a re-analysis of the deposited data

How the results depend on the processing

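No paired analysis was possible because 1 peak list per condition was analysed. Of 46 alternative values, 40 stayed within the 95% interval of the reported value, and no ratio turned below 1. The KO-only share of 25% moved to 10.7% with equal list lengths (11.7% over the whole lists) and to 10.0% without chromosome 13, where 1 of 10 peaks counted, and ranged up to 33.3%. The median ratio of 1.21 moved to 1.42 with a window of 0 kb, where 2 sites remained, and was 1.145 to 1.243 otherwise. The share of peaks with a motif moved from 55.6% to 77.8% at the 95th percentile and to 33.3% within 100 bp of the summit (75.1% and 40.2% over the KO list). Unique words of gene bodies fell from 79.2% to 75.3% with 50 bases. The WT-only share was at most 7.14%. Leaving out the site of highest ratio, an alternative added after the data were seen, gave a median of 1.19 and a ratio of sums of 1.24. Depth limits single sites: at these counts no member below the genome median can be told from it.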

Other observations

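Summits per 100 kb in KO were 0 at Hist4h4, and among the other 7 loci ranged from 3.09 at Hist1h2bl to Hist1h2br to 12.4 around Hist1h2al, with 10.4 at Hist3, 8.25 at Hist1h2ah to Hist1h2bj, 5.54 at Hist2, 4.87 at Hist1h2ba to Hist1h2aa and 3.94 at Hist1h4h to Hist1h1a. In WT the Hist2 locus had 6.65, more than in KO, because 2 WT peaks lay under 1 KO peak. The median CpG content within 50 bp of the summit was 2.0% of dinucleotides at shared member sites and 1.0% at KO-only member sites, and 1.0% over the whole list for both kinds. The median local background was 2.9 fragments for KO members and for the whole KO list, and 2.96 for WT members against 2.66 for the WT list.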
